A study of Homo sapiens with 56 samples.

Results

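The genes described here mark the epithelial and the mesenchymal state of a cell. The set has 32 genes, listed by gene symbol with earlier results of these data known, out of 11963 genes measured. It holds 4 cadherins, EPCAM, 4 keratins of simple epithelia, 6 tight junction genes, 4 genes of the desmosome and its plaque, 3 epithelial regulators, matriptase and its 2 inhibitors, 2 mucins, vimentin, 3 transcription factors of the epithelial to mesenchymal transition and ezrin. Each gene was read from its brightest probe set, by the mean over the 56 arrays, and all 32 were on the array. The members have 54 probe sets between them, and 13 members have more than 1.

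Expression was profiled on 56 Affymetrix arrays of PEO1 and PEO4, established cell lines of high-grade serous ovarian cancer. In each line there were 7 groups of 4 arrays, and all groups shared 3 days of hormone deprivation in charcoal-stripped serum. After deprivation, cells of either line received for 3 h 1 nM estradiol (E2), 1 µM fulvestrant (ICI, an estrogen receptor degrader), 1 µM 4-hydroxytamoxifen (4OHT, the active metabolite of tamoxifen), ICI with E2, 4OHT with E2, or the ethanol vehicle, and a further group was taken at 0 h. In PEO4 the 4OHT arrays are named by an abbreviation that the series description gives as 4-hydroxytamoxifen.

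Epithelial cells are held together by E-cadherin, tight junctions and desmosomes, and their cytoskeleton is built on keratins. In the mesenchymal state vimentin and other cadherins come up, and the transcription factors ZEB1, SNAI2 (Slug) and TWIST1 repress junction genes, while GRHL2, ELF3 and the splicing regulator ESRP1 maintain the epithelial programme. High-grade serous ovarian cancer cells are known for mixed states, in which E-cadherin and vimentin are expressed in the same culture.

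Values are deposited log2 expression values made by RMA, where 1 unit is a 2-fold difference, and they carry no detection calls. Array medians lay between 7.84 and 7.91 in PEO4 and between 7.401 and 7.484 in PEO1, and the median gene stood 0.47 higher in PEO4, so the lines were taken as normalized apart. Levels are therefore compared between lines after joint quantile normalization, which brought that median difference to -0.01. Line and processing batch cannot be told apart, and no p-value is given across lines. The difference between the 3' and 5' control probe sets of ACTB, a measure of RNA degradation, ran from 0.24 to 3.41 in PEO4 and from -0.25 to 0.14 in PEO1. The highest values were those of PEO4 ICI replicate 1 (3.41), PEO4 0 h replicate 4 (2.28) and PEO4 4OHT+E2 replicate 4 (1.74). The lowest correlation between replicate arrays was 0.9923, in the PEO4 ICI group. Nothing in the labels ties replicates to separate cultures, so a p-value covers the spread between these arrays, and in bulk RNA fewer cells with a transcript cannot be told apart from less transcript per cell.

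Both lines carried CDH1, EPCAM and keratins at a high level, and vimentin, P-cadherin, cadherin-6 and SNAI2 were lower in PEO4. Of the 32 genes, 8 had line means at least 2-fold apart with no overlap between the 28 arrays of PEO4 and the 28 arrays of PEO1. In PEO4, 2 of them were higher and 6 lower. Over all genes measured, 10.2% met the same rule, with 665 (5.56%) higher and 555 (4.64%) lower in PEO4. The members were chosen with earlier results of these data known, so they are not an unselected set. Without the 2-fold limit, the arrays of the lines did not overlap for 20 members, 4 higher and 16 lower in PEO4, where 37.2% of all genes did not overlap. Of all 11963 genes, 2245 were higher in PEO4 without overlap and 2200 lower. The members' median difference, PEO4 minus PEO1, was -0.34, against -0.01 over all genes. On the deposited values, before joint normalization, 11 members have a difference of the opposite sign, among them CDH1, CLDN4, KRT19, OCLN, SPINT1, SPINT2 and ST14, and 0 of the 8. A level below is the lowest, median and highest of 28 arrays on the jointly normalized log2 scale.

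Among the cadherins, E-cadherin (CDH1), the adhesion receptor of epithelial cells, had 11.55, 11.68 and 11.90 in PEO4, against 11.64, 11.76 and 11.84 in PEO1, a difference of -0.06 with overlapping arrays. P-cadherin (CDH3) had 7.84, 7.99 and 8.17 in PEO4, against 11.49, 11.63 and 11.76 in PEO1, a difference of -3.62. Cadherin-6 (CDH6), a cadherin of kidney and ovarian cancer, had 7.15, 7.38 and 7.59 in PEO4, against 10.24, 10.55 and 10.84 in PEO1, a difference of -3.18. No PEO4 array reached the lowest PEO1 array for CDH3 or CDH6, while CDH1 did not separate the lines. N-cadherin (CDH2), the cadherin of mesenchymal and neural cells, lay just under the 2-fold limit at -0.92, with 6.36 as the median in PEO4 and 7.26 in PEO1 and no overlap.

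Probe sets of a gene gave different sizes for some members. With the shift between lines of 0.49 taken off the deposited values, the other CDH2 probe set differed by -3.57 where the one used differed by -0.96. For CDH1 the other, dimmer probe set differed by -1.25 where the one used differed by -0.07. The other probe sets of TJP1 and CLDN3 also gave larger negative differences, -1.44 and -1.425, while that of DSC2 gave 0.925 against -0.14 for the one used. For MUC1 the other, dimmer probe sets gave -0.87 and -0.02 against -0.555 for the one used. All 5 probe sets of CDH6, both of KRT7 and both of ELF3 were lower in PEO4.

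Vimentin (VIM), the intermediate filament of mesenchymal cells, had 8.46, 8.90 and 9.13 in PEO4, against 12.15, 12.26 and 12.42 in PEO1. That is a difference of -3.36, or 10.3-fold, and in the 7 groups taken one by one it ran from -3.52 to -3.26. SNAI2, a zinc finger repressor of CDH1, had 4.98, 6.06 and 7.23 in PEO4, against 7.32, 8.01 and 8.53 in PEO1. SNAI2 differed by -1.87, and by -2.25 to -1.41 in the groups one by one. On the joint scale the highest PEO4 array stayed just under the lowest PEO1 array. The deposited SNAI2 values overlapped, up to 7.47 in PEO4 (4OHT+E2) and down to 7.12 in PEO1 (0 h). ZEB1, a related repressor, was the closest member under the limit at -0.93 with no overlap, and its level was low in both lines, 4.93 in PEO4 and 5.87 in PEO1 at the median. TWIST1, a basic helix-loop-helix factor, went the other way by 0.51, with overlapping arrays. With the shift between lines taken off, the other, dimmer ZEB1 probe sets differed by -0.37 and -0.68, against -0.90 for the one used. On the deposited values those other ZEB1 probe sets differed by 0.12 and -0.20. So of the transcription factors of the transition, SNAI2 and, by the probe set used, ZEB1 were lower in PEO4 and TWIST1 was not.

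Of the keratins, KRT7, typical of ovarian and other simple ductal epithelia, had 11.25, 11.48 and 11.71 in PEO4, against 13.19, 13.30 and 13.39 in PEO1, a difference of -1.83. KRT8 and its partner KRT18 were lower by smaller amounts, with differences of -0.64 and -0.33 and no overlap. KRT19 differed by -0.13 and its arrays overlapped. EPCAM, a surface adhesion protein of carcinoma cells, was higher in PEO4 by 0.51 without overlap, with medians of 13.02 in PEO4 and 12.53 in PEO1.

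Both genes of the desmosomal plaque were higher in PEO4. Plakoglobin (JUP), the armadillo protein that links desmosomal cadherins to their plaque, had 11.49, 11.60 and 11.93 in PEO4, against 10.29, 10.44 and 10.69 in PEO1, a difference of 1.16. Desmoplakin (DSP), which ties the plaque to keratin filaments, had 12.31, 12.59 and 12.77 in PEO4, against 11.41, 11.55 and 11.66 in PEO1, a difference of 1.02, which was 0.96 at 0 h. The desmosomal cadherin DSG2 was higher by 0.49 without overlap, and DSC2 differed by -0.16 with overlap. The tight junction genes were mostly lower on the joint scale. Claudins CLDN3, CLDN4 and CLDN7, which seal the space between cells, differed by -0.72, -0.51 and -0.63, and the scaffold TJP1 (ZO-1) by -0.46, each without overlap. On the deposited values CLDN3, CLDN4, CLDN7 and TJP1 differed by -0.19, 0.02, -0.15 and -0.02. Occludin (OCLN) differed by -0.07 and TJP3 (ZO-3) by 0.38, both with overlap.

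ELF3, an epithelial ETS factor, had 7.91, 8.28 and 9.49 in PEO4, against 9.503, 9.675 and 10.343 in PEO1, a difference of -1.37. In the groups one by one it ran from -1.55 to -0.95, under the 2-fold limit at 0 h. On the joint scale the highest PEO4 array lay just under the lowest PEO1 array. The deposited ELF3 values overlapped, up to 9.75 in PEO4 (0 h) and down to 9.23 in PEO1 (4OHT), and their line means differed by -0.85. ESRP1 and GRHL2 were close in the lines, with differences of -0.05 and -0.15 and overlapping arrays. The membrane protease matriptase (ST14) differed by -0.09. Its Kunitz inhibitors SPINT1 and SPINT2 differed by -0.41 and -0.36, and only SPINT2 had no overlap. MUC1 differed by -0.51 without overlap. MUC16, which carries the CA125 antigen, differed by -0.25 and ezrin (EZR), the linker between membrane and actin, by 0.41, both with overlap.

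**Figure D1:**
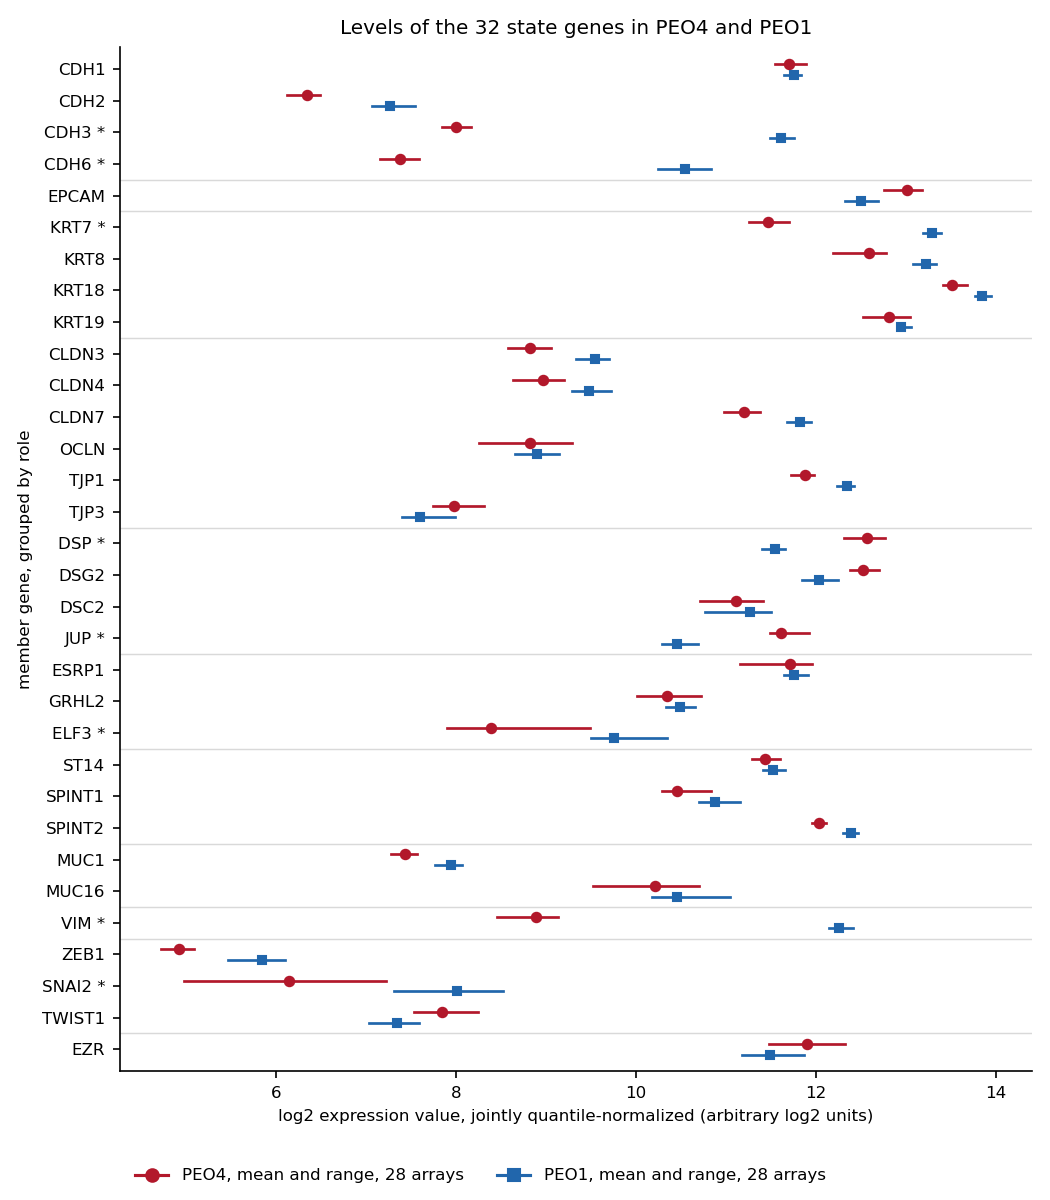
Levels of the 32 members in PEO4 (circles) and PEO1 (squares) on the jointly quantile-normalized log2 scale (x axis), one row a gene, grouped by role (y axis), with the mean and the range from lowest to highest of 28 arrays a line. Asterisks mark the 8 members at least 2-fold apart without overlap: CDH3, CDH6, KRT7, ELF3, VIM and SNAI2 lie lower in PEO4, and DSP and JUP higher.

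The CACCTG hexamer is the E-box that ZEB and Snail family repressors bind. It was searched on both strands, where the other strand reads CAGGTG, in the RefSeq promoter table for GRCh38.p14, which gives 250 bases before and 50 after each start site. Of the members, 19 have entries in that table, 37 in all, and 18 of the 37 (48.6%) hold the hexamer, against 20.6% of all 35116 entries and 18.9% of the 14058 entries of genes on the array. Members had a median GC content of 65.7% in these windows and all entries 58.7%, and a member had 1.95 entries on average against 1.29. By gene, 14 of 19 members and 24.1% of all genes held it in at least 1 entry. The consensus palindrome of the estrogen response element was found in 0 of 19 members' promoters and in 0.0313% of all entries. A match describes letters in a window and was not tested as a binding site.

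Promoters are shown for CLDN7, whose window held the most hexamers of any member, and for the 3 members with an E-box that differed between lines by 2-fold or more in either direction (JUP, DSP and ELF3), with each hexamer in capitals. Of the other members that far apart, VIM held no hexamer, and CDH3, CDH6, KRT7 and SNAI2 have no entry in the promoter table and were not searched. The windows are CLDN7 at chr17:7262429-7262728 on the minus strand, JUP at chr17:41785927-41786226 on the minus strand, DSP at chr6:7541421-7541720 on the plus strand and ELF3 at chr1:202010337-202010636 on the plus strand. Each is read 5′ to 3′ in the direction of the gene, with the start site at the base after the first 250.
CLDN7: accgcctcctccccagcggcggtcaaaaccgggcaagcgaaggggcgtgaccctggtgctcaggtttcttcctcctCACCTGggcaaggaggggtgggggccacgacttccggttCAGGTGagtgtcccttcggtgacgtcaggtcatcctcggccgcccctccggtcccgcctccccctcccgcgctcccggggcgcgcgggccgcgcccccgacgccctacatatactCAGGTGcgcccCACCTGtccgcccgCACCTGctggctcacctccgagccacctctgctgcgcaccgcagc
JUP: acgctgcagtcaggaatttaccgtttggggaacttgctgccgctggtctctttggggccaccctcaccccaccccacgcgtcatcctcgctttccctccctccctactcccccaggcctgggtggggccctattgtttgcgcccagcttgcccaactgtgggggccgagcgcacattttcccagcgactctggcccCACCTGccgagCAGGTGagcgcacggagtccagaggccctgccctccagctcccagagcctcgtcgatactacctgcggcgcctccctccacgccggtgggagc
DSP: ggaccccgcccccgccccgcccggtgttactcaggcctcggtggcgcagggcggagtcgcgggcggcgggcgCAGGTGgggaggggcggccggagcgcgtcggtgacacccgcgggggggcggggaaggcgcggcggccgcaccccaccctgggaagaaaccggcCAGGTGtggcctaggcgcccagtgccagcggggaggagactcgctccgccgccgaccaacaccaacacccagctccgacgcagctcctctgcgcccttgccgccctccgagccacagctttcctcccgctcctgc
ELF3: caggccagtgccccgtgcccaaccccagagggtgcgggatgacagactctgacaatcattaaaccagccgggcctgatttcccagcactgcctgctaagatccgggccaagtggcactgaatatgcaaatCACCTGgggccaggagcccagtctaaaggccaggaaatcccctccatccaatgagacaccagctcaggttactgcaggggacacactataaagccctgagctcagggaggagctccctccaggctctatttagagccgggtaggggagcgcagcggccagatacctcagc

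CLDN7 held 5 hexamers in this window, JUP and DSP 2 each and ELF3 1. The JUP and CLDN7 entries for their other start sites held none.

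Other genes of the same structures, from lists assembled with earlier results of these data known, gave a mixed picture. Of 30 other junction genes measured, 5 were at least 2-fold higher and 1 lower in PEO4, where 5.56% and 4.64% of all genes were. The same shares of all genes are the background for the other lists. The desmosomal genes DSC3 (1.65), PKP2 (1.40) and EVPL (1.14) were among those higher, and claudin CLDN1 was lower at -2.54. Of 10 other keratins, KRT4 was higher by 2.28 and 4 were lower, with KRT23 at -3.03 and KRT16 at -1.59. The list of 25 other epithelial genes and regulators had 1 higher, the Krüppel-like factor KLF5 at 1.43, and 5 lower. The largest difference on it was that of PROM1 (CD133, a surface marker of progenitor cells), at -8.40, with 4.08 to 4.87 in PEO4 and 12.73 to 12.94 in PEO1, followed by the ETS factor EHF at -3.89. Among 12 ezrin partners and relatives, 3 were lower and 0 higher: EPB41L3 at -4.83, the hyaluronan receptor CD44 at -3.27 and PODXL at -1.38. Of 9 genes of the matriptase axis, the protease TMPRSS4 was higher by 2.15 and none was 2-fold lower.

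Other mesenchymal genes did not all follow vimentin. Of 55 measured, 11 were at least 2-fold lower in PEO4 and 8 higher, where 4.64% and 5.56% of all genes were. Their median difference was -0.03. Collagen COL5A1 at -3.25 and fibronectin (FN1) at -2.85 were lower, whereas the proteoglycan lumican (LUM) at 3.27 and the smooth muscle protein TAGLN at 2.83 were higher. Markers of other cell lineages were measured too. Of 13 on that list, LUM was at least 2-fold higher and LYZ, at -1.04, lower in PEO4. Fibroblast markers averaged from 5.99 (LUM) to 10.60 (THY1) in PEO4 and from 2.72 (LUM) to 11.77 (THY1) in PEO1, and the PEO4 minus PEO1 difference of THY1 was -1.17. Immune markers ran from 3.72 (LYZ) to 7.16 (CD3E) in PEO4 and from 3.42 (PTPRC) to 7.18 (CD3E) in PEO1. Endothelial markers ran from 4.45 (CDH5) to 6.75 (PECAM1) in PEO4 and from 4.36 (CDH5) to 6.37 (PECAM1) in PEO1. Which of these lie above background is unknown without detection calls.

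Over 14 comparisons within a line there were 34 calls, a call being a Benjamini-Hochberg adjusted p under 0.05 in limma over all genes. They fell on 13 of 32 members (40.6%), where 28.6% of all genes were called at least once. Of the 34, 24 lay in the 12 comparisons between treatments, on 10 members (31.2%), where 23.2% of all genes were called, and 10 in vehicle against 0 h. The other 19 members were never called. The 19 are EPCAM, all 4 keratins, CLDN3, CLDN7, TJP1, DSP, DSG2, DSC2, ESRP1, matriptase and both its inhibitors, MUC1, CDH2, CDH3 and vimentin, and their largest difference in any comparison was 0.27. SNAI2 was called in 8 comparisons, EZR in 6, ELF3 in 4, and CDH6 and GRHL2 in 3 each. The range between the highest and lowest of the 7 group means had a median over the members of 0.19 in PEO4 and 0.16 in PEO1, against 0.19 and 0.17 over all genes. For SNAI2 that range was 1.71 in PEO4 and 0.91 in PEO1, and for ELF3 1.25 in PEO4 and 0.68 in PEO1. The share of all genes called, given below for each comparison, is the background for the members' counts. Here too the members are not an unselected set.

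**Figure D2:**
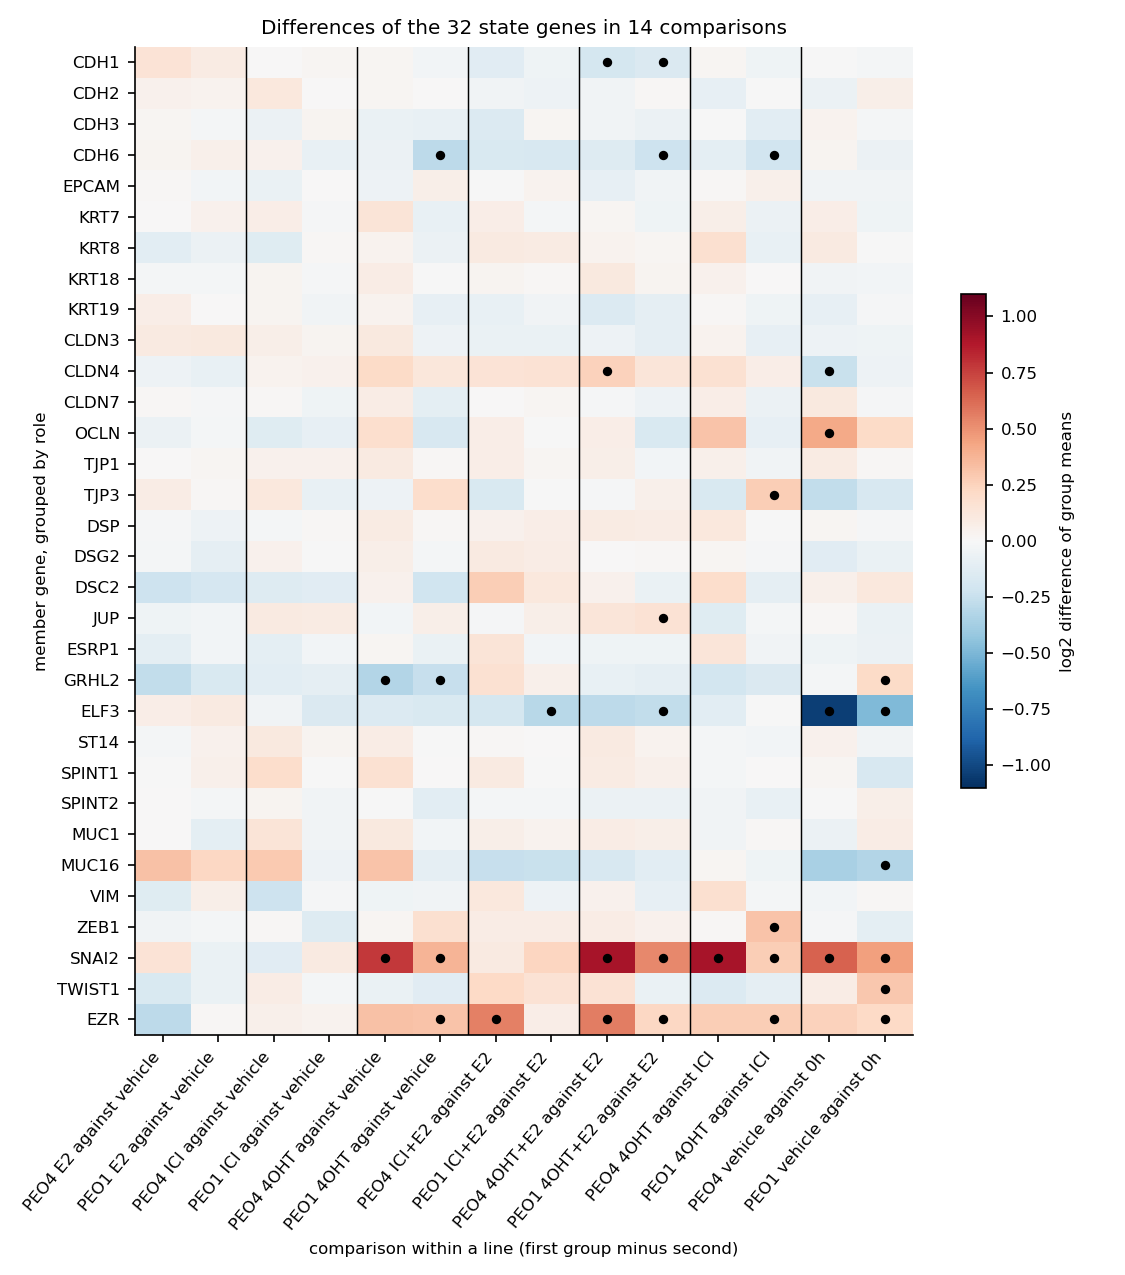
Log2 differences of group means (colour scale, red higher and blue lower in the first group) for the 32 members (rows, grouped by role) in 14 comparisons within a line (columns, PEO4 left of PEO1). Black dots mark the 34 calls, which lie mainly in the rows of SNAI2, EZR and ELF3 and are absent from the E2 and ICI comparisons with vehicle.

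Estradiol alone called no member in either line in limma. In PEO4, 0 of 32 passed, where 2.12% of all genes did, and 4 had an unadjusted p under 0.05, where 8.91% of all genes did. In PEO1, 0 of 32 passed, where 2.09% of all genes did, and again 4 had an unadjusted p under 0.05, where 11.5% of all genes did. The nearest was GRHL2, the grainyhead factor that keeps junction genes on. It had 10.50, 10.30, 10.61 and 10.60 in PEO4 with E2, against 10.74, 10.87, 10.78 and 10.72 with vehicle, a difference of -0.27 ± 0.08 (SE, adjusted p = 0.0547 in limma). In PEO1 it had 10.17, 10.22, 10.18 and 10.34 with E2, against 10.39, 10.38, 10.44 and 10.36 with vehicle, a difference of -0.17 ± 0.05 (SE, adjusted p = 0.0668 in limma). In neither line did the GRHL2 arrays of E2 and vehicle overlap. CDH1 differed by 0.15 ± 0.05 in PEO4 and by 0.09 ± 0.04 in PEO1 (SE, adjusted p = 0.122 and 0.413 in limma), again without overlap.

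Fulvestrant alone also called no member in limma. In PEO4 the count was 0 of 32, where 0.159% of all genes passed, with 3 members at an unadjusted p under 0.05 (17.5% of all genes). In PEO1 it was 0 of 32, where 0.134% of all genes passed, with 1 member at an unadjusted p under 0.05 (4.66% of all genes). Of these, the largest differences were VIM in PEO4 at -0.22 ± 0.07 (SE, adjusted p = 0.107 in limma) and ELF3 in PEO1 at -0.16 ± 0.05 (SE, adjusted p = 0.657 in limma). PEO4 ICI replicate 1, the array with the highest ACTB measure (3.41), had the lowest VIM value of its group, 8.81 against 8.93 to 9.18.

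Against vehicle, 4OHT alone raised SNAI2 and lowered GRHL2 in both lines. In PEO4, 2 of 32 members were called, where 5.53% of all genes were. In PEO1, 4 of 32 were called, where 6.75% of all genes were. SNAI2 had 7.37, 6.86, 6.86 and 6.73 in PEO4 with 4OHT, against 6.19, 6.30, 6.07 and 6.16 with vehicle. All 4 PEO4 arrays with 4OHT lay above all 4 with vehicle, and the difference was 0.78 ± 0.13 (SE, adjusted p = 0.000404 in limma). In PEO1 it had 8.12, 8.03, 8.001 and 8.13 with 4OHT, against 7.77, 7.73, 7.81 and 7.48 with vehicle, again with no overlap and a difference of 0.37 ± 0.08 (SE, adjusted p = 0.00298 in limma). The response was larger in PEO4 by 0.41 ± 0.16, which did not pass over all genes (SE, adjusted p = 0.198 in limma).

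GRHL2 went the other way from SNAI2 under 4OHT. It had 10.40, 10.39, 10.49 and 10.54 in PEO4 with 4OHT, against 10.74, 10.87, 10.78 and 10.72 with vehicle, a difference of -0.32 ± 0.08 (SE, adjusted p = 0.00963 in limma). In PEO1 it had 10.07, 10.09, 10.22 and 10.18 with 4OHT, against 10.39, 10.38, 10.44 and 10.36 with vehicle, a difference of -0.25 ± 0.05 (SE, adjusted p = 0.00139 in limma). Arrays of the groups did not overlap in either line. With 4OHT+E2 against E2, GRHL2 was called in neither line. Those group means were 10.42 and 10.50 in PEO4 and 10.12 and 10.23 in PEO1. In PEO1 the GRHL2 vehicle mean, 10.39, was the highest of the line's groups, and the 0 h mean was 10.19. In PEO4 the highest mean was that of 0 h at 10.80, followed by vehicle at 10.78. EZR and CDH6 were also called in PEO1 with 4OHT against vehicle. EZR rose by 0.31 ± 0.06 and CDH6 differed by -0.29 ± 0.05 (SE, adjusted p = 0.00139 and 0.0014 in limma). In PEO4, EZR differed by 0.32 ± 0.10, just short of a call (SE, adjusted p = 0.0576 in limma), and CDH6, which is low in that line, was not called. Of the 13 markers of other lineages, PTPRC (0.34) and LYZ (-0.30) were called in PEO4 with 4OHT and none in PEO1. Their part in these results was not tested.

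**Figure D3:**
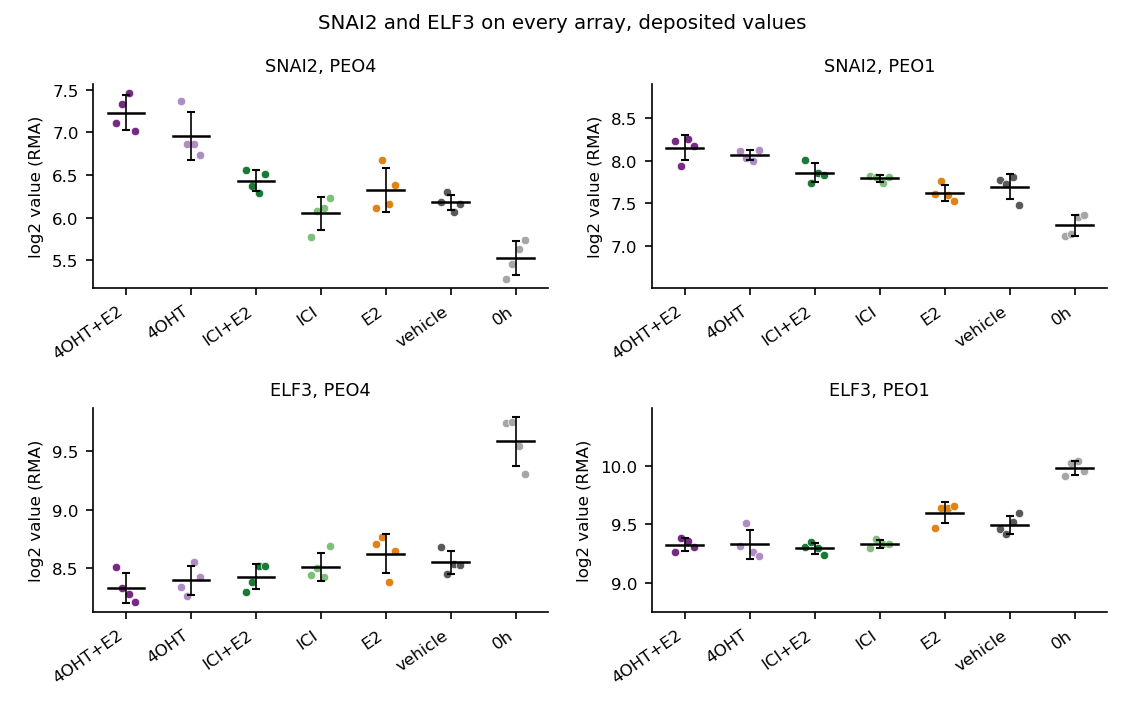
Deposited log2 values (y axis) of SNAI2 and ELF3 on every array in the 7 groups (x axis), PEO4 left and PEO1 right, with the group mean (wide line) and SD (bars, n = 4); both panels of a gene span the same number of log2 units. SNAI2 is highest with 4OHT, with or without E2, and lowest at 0 h in both lines, and ELF3 is highest at 0 h.

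With 4OHT added to E2, SNAI2 and ezrin rose and CDH1 fell in both lines. With 4OHT+E2 against E2, 4 of 32 members were called in PEO4, where 5.73% of all genes were, and 6 of 32 in PEO1, where 12.7% of all genes were. SNAI2 had 7.12, 7.34, 7.47 and 7.02 in PEO4 with 4OHT+E2, against 6.11, 6.67, 6.16 and 6.38 with E2, a rise of 0.90 ± 0.13 (SE, adjusted p = 2.62e-05 in limma). In PEO1 it had 8.23, 7.94, 8.26 and 8.18 with 4OHT+E2, against 7.60, 7.76, 7.59 and 7.53 with E2, a rise of 0.53 ± 0.08 (SE, adjusted p = 1.68e-05 in limma). No array with 4OHT+E2 was as low as any with E2 alone.

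Ezrin had 12.32, 12.44, 12.38 and 12.28 in PEO4 with 4OHT+E2, against 11.92, 11.84, 11.70 and 11.72 with E2, a rise of 0.56 ± 0.10 (SE, adjusted p = 0.000454 in limma). PEO1 arrays had 11.32, 11.42, 11.38 and 11.57 with 4OHT+E2, against 11.24, 11.20, 11.14 and 11.19 with E2, a rise of 0.23 ± 0.06 (SE, adjusted p = 0.0109 in limma). Without PEO1 4OHT+E2 replicate D the PEO1 difference was 0.18 and no longer called. In PEO4, EZR was lowest with E2 alone, at a mean of 11.80, against 12.08 with vehicle, and those arrays did not overlap. The PEO4 rise is therefore measured from the lowest group of that line. CDH1 had 11.93, 11.92, 11.84 and 11.80 in PEO4 with 4OHT+E2, against 12.13, 12.08, 12.01 and 12.06 with E2. Its difference was -0.20 ± 0.05 (SE, adjusted p = 0.00943 in limma), and in PEO1 it was -0.16 ± 0.04 (SE, adjusted p = 0.0137 in limma), with no overlap in either line. On only the compared groups CDH1 was called in neither line (adjusted p = 0.0662 in PEO4 and 0.107 in PEO1 in limma). It also lost its call with the mean of probe sets in PEO4 (-0.17) and with quantile normalization in PEO1 (-0.105), while the mean of probe sets gave -0.29 in PEO1. The other CDH1 probe set differed by -0.14 in PEO4 and -0.43 in PEO1 and was called in neither. The CDH1 values with 4OHT+E2 lie next to those of the vehicle groups, 11.92 ± 0.04 in PEO4 and 11.51 ± 0.03 in PEO1 (SD, n = 4), since CDH1 was highest with E2 alone. The ACTB measure of degradation reached 1.74 among the PEO4 4OHT+E2 arrays and 1.02 among the PEO4 E2 arrays. Without the array at 1.74 the PEO4 differences were 0.98 for SNAI2, 0.59 for EZR and -0.17 for CDH1, all still called.

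The other calls with 4OHT+E2 were single ones. In PEO4 claudin CLDN4 rose by 0.26 ± 0.07, with overlapping arrays (SE, adjusted p = 0.0177 in limma). It lost its call without PEO4 E2 replicate 3 (0.19), 4OHT+E2 replicate 1 (0.23) or 4OHT+E2 replicate 2 (0.23). In PEO1, ELF3 differed by -0.27 ± 0.05, CDH6 by -0.22 ± 0.05 and JUP by 0.16 ± 0.05 (SE, adjusted p = 0.00111, 0.0068 and 0.0441 in limma). JUP lost its call in 6 of the 8 fits that left out 1 array of its groups.

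With ICI+E2 against E2, a single member was called in each line and not the same one. In PEO4, 1 of 32 passed, where 2.08% of all genes did: EZR had 12.30, 12.44, 12.35 and 12.32 with ICI+E2, against 11.92, 11.84, 11.70 and 11.72 with E2, a rise of 0.55 ± 0.10 (SE, adjusted p = 0.00144 in limma). In PEO1, 1 of 32 passed, where 2.5% of all genes did: ELF3 had 9.31, 9.35, 9.30 and 9.24 with ICI+E2, against 9.46, 9.64, 9.64 and 9.65 with E2, a difference of -0.30 ± 0.05 (SE, adjusted p = 0.000691 in limma). The arrays did not overlap in either case. Here too the PEO4 rise of EZR is measured from E2, the lowest EZR group of the line (mean 11.80, against 12.08 with vehicle). The mean of the EZR probe sets gave 0.36 in PEO4, still called, and of the other 4 probe sets 1 was called (0.29) and 3 were not (0.50, 0.31 and 0.16). SNAI2 differed by 0.10 ± 0.13 in PEO4 and 0.24 ± 0.08 in PEO1 (SE, adjusted p = 0.847 and 0.109 in limma).

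**Figure D4:**
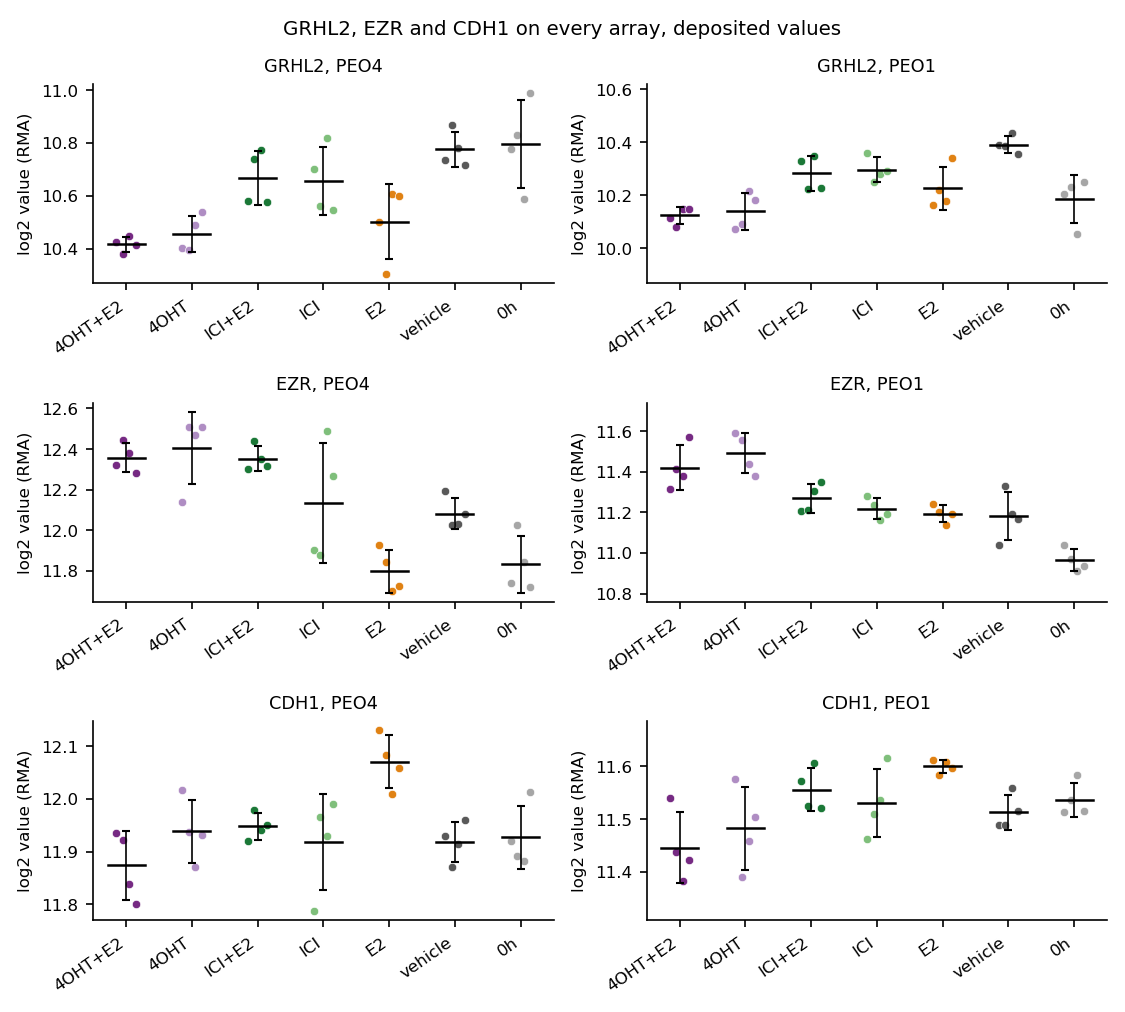
Deposited log2 values (y axis) of GRHL2, EZR and CDH1 on every array in the 7 groups (x axis), PEO4 left and PEO1 right, with the group mean (wide line) and SD (bars, n = 4). GRHL2 is lower with 4OHT than with vehicle in both lines, EZR is higher with 4OHT+E2 than with E2, and CDH1 is highest with E2.

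The antiestrogens were given at the same dose and time, and 4OHT set against ICI repeats much of the 4OHT result since it uses the same 4OHT arrays. In PEO4, 1 of 32 members was called, where 2.33% of all genes were. It was SNAI2, at 0.90 ± 0.13 (SE, adjusted p = 7.3e-05 in limma), and at 0.81 with ICI replicate 1 and 0 h replicate 4, the arrays with the highest ACTB measure, left out. The marker LYZ differed by -0.26 in this comparison. In PEO1, 5 of 32 were called, where 3.74% of all genes were. ZEB1, EZR, TJP3 and SNAI2 were higher with 4OHT by 0.31, 0.27, 0.27 and 0.27, and CDH6 was lower with a difference of -0.21. The ZEB1 arrays overlapped. No other probe set of these genes was called: the other TJP3 probe set differed by 0.03, those of ZEB1 by 0.05 and 0.18, and those of EZR by 0.07 to 0.30. Leaving out 1 array of either group gave between 1 and 4 called members. There was 1 without ICI replicate C, 2 without ICI replicate A, B or D or 4OHT replicate C, and 3 without 4OHT replicate B.

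Vehicle at 3 h was also set against 0 h. In PEO4, 4 of 32 were called, where 6.3% of all genes were, and in PEO1, 6 of 32, where 7.43% of all genes were. ELF3 and SNAI2 were called in both lines in the same direction. ELF3 had 8.68, 8.45, 8.53 and 8.52 in PEO4 with vehicle, against 9.74, 9.75, 9.54 and 9.30 at 0 h, a difference of -1.03 ± 0.09 (SE, adjusted p = 1.48e-08 in limma). In PEO1 it had 9.46, 9.42, 9.52 and 9.59 with vehicle, against 9.91, 10.02, 10.04 and 9.95 at 0 h, a difference of -0.48 ± 0.05 (SE, adjusted p = 1.97e-06 in limma). Both ELF3 probe sets were called, the other at -1.11 in PEO4 and -0.36 in PEO1.

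SNAI2 moved up over the same wait. It had 6.19, 6.30, 6.07 and 6.16 in PEO4 with vehicle, against 5.28, 5.46, 5.63 and 5.74 at 0 h, a rise of 0.65 ± 0.13 (SE, adjusted p = 0.00176 in limma). PEO1 arrays had 7.77, 7.73, 7.81 and 7.48 with vehicle, against 7.12, 7.15, 7.34 and 7.37 at 0 h, a rise of 0.45 ± 0.08 (SE, adjusted p = 0.000288 in limma). No vehicle array overlapped a 0 h array for either gene in either line. The ACTB measure was 0.24 to 0.57 in the PEO4 vehicle arrays and 0.50 to 2.28 in the PEO4 0 h arrays. With 0 h replicate 4 and ICI replicate 1 left out, the PEO4 differences were -1.13 for ELF3 and 0.72 for SNAI2, both still called. Of the markers of other lineages, PECAM1 differed by -0.28 in PEO4 and none was called in PEO1, and their part was not tested.

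The remaining calls in this comparison differed between lines, and whether they differ was not tested. In PEO4, occludin had 9.20, 9.23, 9.07 and 9.08 with vehicle, against 8.71, 8.62, 9.01 and 8.56 at 0 h, a rise of 0.42 ± 0.11 (SE, adjusted p = 0.0163 in limma). CLDN4 differed by -0.25 ± 0.07 in PEO4 (SE, adjusted p = 0.0231 in limma). In PEO1, TWIST1 rose by 0.30 ± 0.06, EZR by 0.22 ± 0.06 and GRHL2 by 0.21 ± 0.05, and MUC16 differed by -0.32 ± 0.09 (SE, adjusted p = 0.00306, 0.0198, 0.00628 and 0.0329 in limma). EZR and MUC16 overlapped between groups and each lost its call in several of the fits that left out 1 array. Without vehicle replicate 2, the PEO4 calls were 2 in place of 4, since OCLN and CLDN4 were lost.

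The responses of the lines to a ligand were set against each other in 1 fit over all 56 arrays. No member differed between PEO4 and PEO1 in limma in its response to E2, where 0.493% of all genes did, to ICI, where 0.1% did, or to 4OHT, where 1.26% did. At an unadjusted p under 0.05 there were 2, 2 and 6 members, where 6.06%, 9.69% and 14.6% of all genes passed. The 6 for 4OHT, as PEO4 minus PEO1, were SNAI2 (0.41), OCLN (0.36), CDH6 (0.23), KRT7 (0.22), CLDN7 (0.19) and SPINT2 (0.11). None of them passed over all genes (smallest adjusted p = 0.164 in limma).

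The ligands' receptor, ESR1, fell with 4OHT against vehicle, with differences of -0.22 ± 0.06 in PEO4 and -0.13 ± 0.04 in PEO1 (SE, adjusted p = 0.0171 and 0.0245 in limma). With vehicle against 0 h it also fell, with differences of -0.28 ± 0.06 in PEO4 and -0.22 ± 0.04 in PEO1 (SE, adjusted p = 0.0019 and 0.000246 in limma). ESR1 was called with neither E2 nor ICI alone.

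Other state genes, from the same lists, were called with E2 against vehicle. The desmosome-associated gene KAZN rose with E2 by 1.35 ± 0.06 in PEO4 and 0.69 ± 0.05 in PEO1, the OVO-like repressor OVOL2 by 0.32 ± 0.07 and 0.31 ± 0.05 (SE, adjusted p at most 0.00457 in limma). KAZN was the only called gene of the 30 other junction genes with E2 in either line. OVOL2, which holds cells in the epithelial state, also differed with 4OHT against vehicle by -0.30 ± 0.07 in PEO4 and -0.46 ± 0.05 in PEO1 (SE, adjusted p = 0.00581 and 4.81e-06 in limma). With 4OHT+E2 against E2 it differed by -0.66 ± 0.07 in PEO4 and by -0.69 ± 0.05 in PEO1. KLF5 differed with E2 by -0.49 ± 0.09 in PEO4 and rose with 4OHT+E2 against E2 by 0.62 ± 0.09 there. The claudin CLDN1 rose in PEO4 with 4OHT by 0.57 ± 0.12 and with vehicle against 0 h by 0.89 ± 0.12. The protease TMPRSS2 rose in PEO4 with 4OHT by 0.22 ± 0.06 and fell with vehicle against 0 h, as did PRSS8, with differences of -0.21 ± 0.06 and -0.27 ± 0.05 (SE). The other keratins KRT16 and KRT23 rose in PEO4 with 4OHT+E2 against E2, by 0.56 ± 0.08 and 0.35 ± 0.08 (SE). Each of these was called in limma. Among 55 other mesenchymal genes, the matrix protein THBS1 rose in PEO4 with 4OHT by 0.67 ± 0.10 and with vehicle against 0 h by 1.56 ± 0.10. In that last comparison 10 of the 55 rose and 1 fell in PEO4, with 3.74% and 2.57% of all genes, and 1 rose and 0 fell in PEO1.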

How the data were processed

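Expression of PEO1 and PEO4 cells was measured on 56 Affymetrix arrays. The deposited log2 values are the authors' own, and the submitters' processing notes name RMA as the tool without a version. No raw scanner files were used. Of 22277 probe sets, 62 controls were set aside. The array's annotation table gave 1 gene symbol to 19064, several to 1043 and none to 2108, and those with several or none were not used. For 19052 the symbol matched RefSeq through its gene ID, and 0 changed. The brightest probe set of each gene was kept, which left 11963 genes. Array number and signal range, 2.178 to 14.331, limit the precision, and the median SE was 0.0713 in PEO4 and 0.0633 in PEO1.

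Each line was fitted apart with limma 3.58.1 in R 4.3.3 on 28 arrays (21 residual degrees of freedom), and line differences of a response in 1 fit on 56 arrays (42 residual degrees of freedom). Adjusted p-values are limma's with Benjamini-Hochberg over all genes, called under 0.05. Levels between lines were described after joint quantile normalization. Alternatives were trend and robust variances, quantile normalization, a filter on dim genes, the mean of probe sets, only the compared groups, a replicate block, and leaving out arrays. Same-numbered arrays did not all correlate over 0.1 in any comparison, so numbers were not used as pairs.

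Named genes were all 32 members and, from the other lists, up to 4 called per list and comparison by adjusted p, or by the largest difference between lines, with ESR1 as the receptor and ACTB and GAPDH control probe sets as RNA quality. The members and lists were chosen with earlier results of these data known.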

Additional observations from a re-analysis of the deposited data

Results flagged for a closer look

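For each call of a member, the arrays of its groups were checked for 1 that stands apart from the other 3 by more than Dixon's critical value for the gap over the range. That made 58 checks, each of 1 gene in 1 group of 4 arrays, and checks of different genes share arrays. It happened in 4 of the 58, and chance gives about 1 in 20. CDH6 was 9.956 on PEO1 4OHT replicate C, below the other arrays of its group at 10.115 to 10.138. ELF3 was 9.465 on PEO1 E2 replicate A, below the others at 9.639 to 9.653. SNAI2 was 7.740 on PEO1 ICI replicate C, below the others at 7.807 to 7.819. TJP3 was 7.753 on PEO1 4OHT replicate C, above the others at 7.435 to 7.464. Without 4OHT replicate C, the TJP3 and CDH6 calls of PEO1 4OHT against ICI were among those lost, at 0.20 and -0.16.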

How the results depend on the processing

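Of the 34 member calls, none changed sign under any alternative. All 34 were kept with trend and robust variances and with the replicate block, and all 28 still tested were kept with dim genes left out. Quantile normalization kept 29, the mean of probe sets 30 and fits on only the compared groups 23. Of 272 refits without 1 array of the compared groups, 228 kept the call. SNAI2 kept its calls in 7 of its 8 comparisons under every setting in which it was tested (dim genes left out removed it in PEO4), ELF3 in all 4 and GRHL2 in all 3. The weakest, all in PEO1, were TJP3, SNAI2, ZEB1 and CDH6 with 4OHT against ICI, JUP with 4OHT+E2 against E2, and EZR and MUC16 with vehicle against 0 h. Counts of called members moved as follows. With E2 against vehicle, in place of 0, PEO4 gave 1 with trend and robust variances, 1 with dim genes left out, 1 on only the compared groups and 2 without PEO4 0 h replicate 4 and ICI replicate 1, which had the highest ACTB measure. PEO1 gave 1 with trend and robust variances, 1 with dim genes left out, 1 with quantile normalization and 1 with the mean of probe sets. With 4OHT against vehicle, in place of 2, PEO4 gave 1 with dim genes left out and 4 each with the mean of probe sets, on only the compared groups and without those 2 arrays. In place of 4, PEO1 gave 7 with the mean of probe sets. With 4OHT against ICI, in place of 1, PEO4 gave 0 with dim genes left out, since SNAI2 was then not tested, and 2 each with the mean of probe sets and without the 2 arrays. In place of 5, PEO1 gave 2 with quantile normalization, 3 with the mean of probe sets and 1 on only the compared groups. PEO4 ICI+E2 against E2 gave 2 in place of 1 with the mean of probe sets and without the 2 arrays. On only the compared groups, 4OHT+E2 against E2 gave 2 in PEO4 in place of 4 and 3 in PEO1 in place of 6. With 1 array left out, the counts ran from 1 to 4 for PEO1 4OHT against ICI, from 1 to 2 for PEO4 4OHT against ICI, from 2 to 4 for PEO4 vehicle against 0 h, and from 0 to 1 for E2 against vehicle in both lines and for PEO4 ICI against vehicle. The arrays behind these were all 4 of PEO1 ICI and PEO1 4OHT replicates B and C, PEO4 ICI replicates 1, 3 and 4, PEO4 vehicle replicate 2, PEO4 E2 replicate 3, PEO1 E2 replicate D and PEO4 ICI replicate 4. With the replicate block, 4OHT against vehicle called 3 members in PEO4 and 5 in PEO1, and in no comparison did every same-numbered pair correlate over 0.1, with values from -0.402 to 0.341. The count of members at least 2-fold apart between lines was 6 on deposited values, 6 with median centring, 9 with the mean of probe sets and 3 at a 4-fold limit, in place of 8. On deposited values SNAI2 and ELF3 were not counted, since their arrays overlapped between the lines. The deposited ELF3 difference, -0.85, was also under the 2-fold limit. The causes were not tested. The deposited values hold no background calls, so the floor of dim probe sets such as those of ZEB1 is unknown.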

Other observations

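Several state genes outside the member set differed in their response between the lines. The response to E2, PEO4 minus PEO1, differed by 0.65 ± 0.08 for KAZN, -0.57 ± 0.12 for KLF5 and 0.27 ± 0.06 for the membrane protein TMEM30B (SE, adjusted p = 3.06e-07, 0.00483 and 0.021 in limma). Among 55 other mesenchymal genes, CCN2, a matricellular target of mechanical signalling, differed by -0.57 ± 0.13 and the ligand WNT5A by 0.40 ± 0.09 (SE, adjusted p = 0.015 and 0.0272 in limma). The response to 4OHT differed by 0.34 ± 0.06 for the receptor TGFBR2 and by 0.32 ± 0.07 for fibronectin (FN1) (SE, adjusted p = 0.000878 and 0.0152 in limma).

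KAZN had opposite responses to the antiestrogens in the lines. It differed from vehicle by 0.30 ± 0.06 with ICI and by 0.36 ± 0.06 with 4OHT in PEO4, and by -0.36 ± 0.05 with ICI and by -0.22 ± 0.05 with 4OHT in PEO1 (SE, adjusted p at most 0.0335 in limma). The differences between lines were 0.66 ± 0.08 with ICI and 0.58 ± 0.08 with 4OHT (SE, adjusted p = 1.08e-06 and 1.07e-05 in limma). ICAM1, a membrane partner of ezrin, rose with 4OHT against vehicle by 0.42 ± 0.07 in PEO1, and with vehicle against 0 h by 0.68 ± 0.08 in PEO4 (SE, adjusted p = 0.000233 and 1.55e-06 in limma). The receptor ERBB3 fell with vehicle against 0 h in both lines, with differences of -0.41 ± 0.05 in PEO4 and -0.32 ± 0.05 in PEO1 (SE, adjusted p = 4.95e-06 and 0.000104 in limma).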
